A study of Mus musculus with 10 samples.

Results

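The mitochondrial ribosome is encoded by 2 genomes, and its proteins come from nuclear genes whose names begin with Mrpl or Mrps. In the RNA-seq data of gastrocnemius muscle described here, these genes were the coding genes with a symbol of Mrpl or Mrps followed by a digit and with a mean value of at least log2(10) over all mice. The pattern fits 77 coding genes once Mrpl44, which was left out of the set, is set aside. The set holds 76 of them, out of 54232 genes in the table and 14289 that reached the same limit. Only Mrpl53 lay under the limit. The rule used the level over all mice and not the difference between genotypes.

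For this comparison, 5 homozygous desmin knock-out mice (Des -/-) were set against 5 wild-type mice (Des wt/wt), all on the strain B6J.129Sv-Destm1Cba/Cscl and 3 months old. The Destm1Cba allele removes desmin, the main intermediate filament protein of muscle, in the germline, and therefore in all cells and from the start of development. No mouse received a treatment. The methods name gastrocnemius muscle alone, whereas a figure legend and the discussion of the study name gastrocnemius and plantaris muscles. The methods speak of RNA pooled from 5 muscles per genotype, whereas the table separates the mice, and every mouse was taken as 1 replicate. The wild-type mice were littermates.

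Mitochondria keep a small genome whose messenger RNAs code for core subunits of the respiratory chain and ATP synthase. These messages are read by a ribosome of their own, with a small subunit that holds the messenger RNA and decodes it and a large subunit that joins the amino acids. Its RNA is made inside the organelle and its proteins are made in the cytosol and imported, some belonging to families shared with bacterial ribosomes and others being found only in mitochondria. Muscle is rich in mitochondria, and desmin filaments link these to the myofibrils. Whether transcripts of the mitochondrial ribosome differ in muscle without desmin is the question of this comparison.

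The deposited values are regularized log (rlog) values, a log2 scale on which library size is evened out and each gene is drawn towards its own mean. A difference of 1 is 2-fold on this scale, and the true ratio of reads can be larger, mostly in genes with few reads. Sequencing depth is unknown from such values. Des itself separated the genotypes, its mean being 11.84 ± 0.06 (SD, n = 5) without desmin against 16.58 ± 0.67 (SD, n = 5) in wild-type muscle. The summed level of 10 muscle fiber markers, among them Acta1 and Ckm, was between 22.1 and 23.2 on the log2 scale in all mice, as the label of striated muscle requires. Wild-type mouse 3 stood apart from all others. It had the highest value of all 10 mice in 28.7% and the lowest in 27.0% of the tested genes, so results are given with and without it.

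None of the 76 genes was called higher or lower in desmin knock-out muscle at an adjusted p under 0.05 (limma, adjusted over all 14289 tested genes), while 13.7% of all tested genes were (7.70% higher and 5.99% lower). The smallest adjusted p was 0.067. At an unadjusted p under 0.05 (limma) there were 3 genes with a higher and 3 with a lower mean, which is 6 of 76 against 27.6% of all tested genes (14.5% higher and 13.1% lower). Differences ran from -0.42 for Mrps18b to 0.28 for Mrpl33, and the largest of them corresponds to 1.34-fold. The median difference was -0.09, compared with -0.003 over all tested genes. The knock-out mean was the lower one for 57 of the 76 genes, compared with 50.5% of all tested genes.

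The intervals limit how large a difference could be on this scale. All 76 had a 95% interval within 2-fold in either direction, as had 93.8% of all tested genes. For 70 of the 76 the interval lay within 1.5-fold, compared with 68.4% of all tested genes. The lowest bound of any gene was -0.75 and the highest 0.48. The median standard error was 0.12 for these genes and 0.13 for all tested genes.

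**Figure D1:**
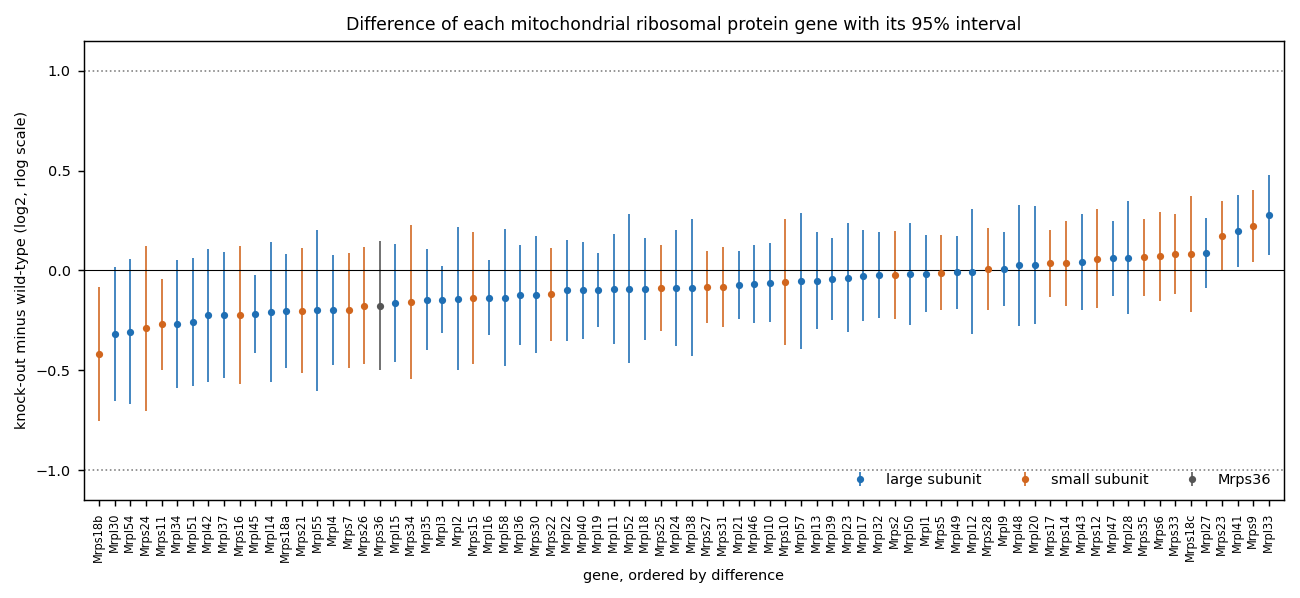
Knock-out minus wild-type difference (log2, rlog scale) of each of the 76 genes, ordered by size, with its 95% interval from limma over 5 mice per genotype; blue marks the large subunit, orange the small subunit and gray Mrps36, and dotted lines mark 2-fold. Points run from -0.42 to 0.28 and no interval reaches a dotted line.

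The median of the list followed 1 mouse. Relative to each gene's mean over the 10 mice, the median of the 76 genes was 0.44 in wild-type mouse 3. It was between -0.13 and 0.09 in the other wild-type mice and between -0.11 and 0.03 in desmin knock-out mice, ranges that overlap. Wild-type mouse 3 had the highest value of all 10 mice for 58 of the 76 genes, compared with 28.7% of all tested genes. It lay above the mean of the other wild-type mice for 69 genes, with a median gap of 0.47 and a range from -0.50 for Mrpl50 to 1.04 for Mrpl55. Over all tested genes the median gap was 7.8e-05. Over the 12762 tested coding genes the gap was lower in longer genes (Spearman correlation with exon length -0.35), compared with -0.17 within the 76 genes. The part of gene length in this gap was not tested.

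**Figure D2:**
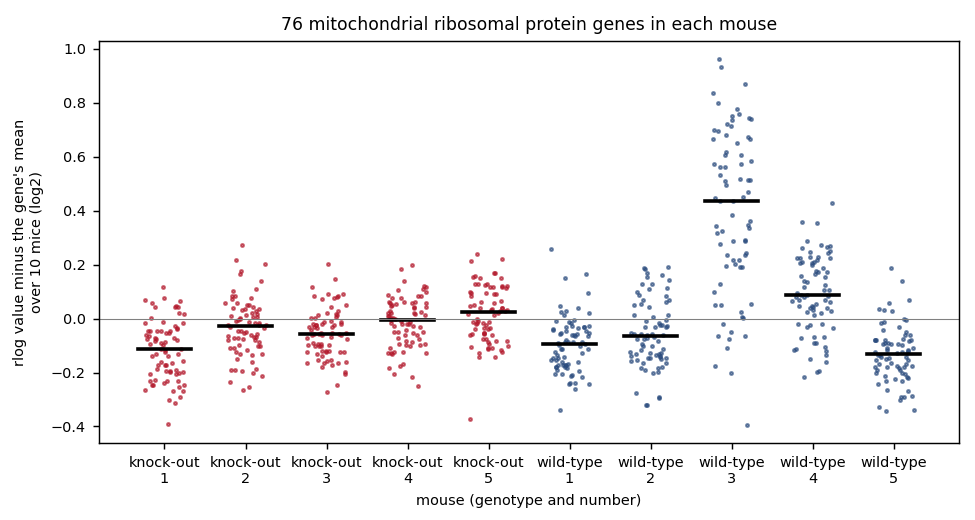
Each point is 1 of the 76 genes in 1 mouse, given as its rlog value minus the gene's mean over the 10 mice (log2), and black bars are medians; red marks desmin knock-out and blue wild-type mice. The bar of wild-type mouse 3 is at 0.44 and those of the other mice lie between -0.13 and 0.09.

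Without wild-type mouse 3 the median difference was 0.01, with 35 genes lower and 41 higher in the mean, where 50.9% of all tested genes were lower. In 22 genes the difference was negative with this mouse and positive without it. None went from positive to negative, while 35 were negative and 19 positive both ways. Without this mouse 1 of the 76 genes, Mrpl33, was called higher and none lower at an adjusted p under 0.05 (limma), against 17.5% of all tested genes (9.34% higher and 8.13% lower). At an unadjusted p under 0.05 (limma) 5 genes were higher and 4 lower, against 29.7% of all tested genes (15.3% higher and 14.4% lower). All 76 intervals then lay within 1.5-fold.

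**Figure D3:**
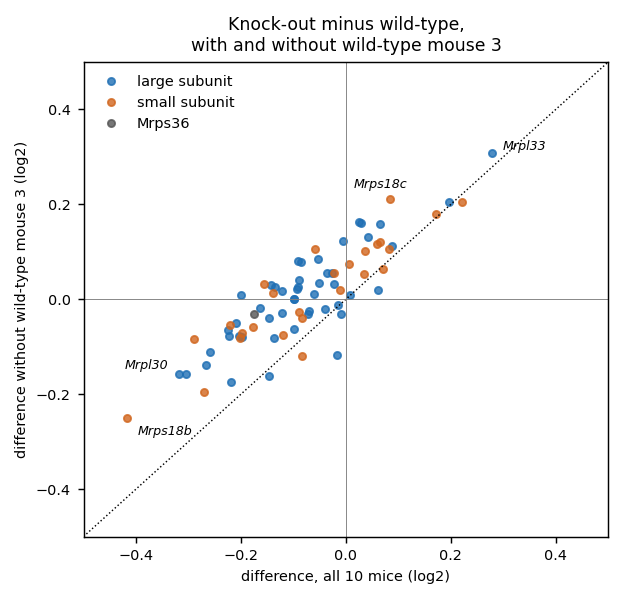
Knock-out minus wild-type difference (log2, rlog scale) of the 76 genes with all 10 mice on the x axis and without wild-type mouse 3 on the y axis; the dotted line marks equal values and colors mark the subunits. Most points lie above the line, the median moving from -0.09 to 0.01.

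The large subunit was represented by 49 genes. Mrps30 and Mrps18a are counted here because their proteins sit in the large subunit despite their names. Their median difference was -0.09 with all mice and 0.01 without wild-type mouse 3, and 40 of 49 had the lower mean in knock-out mice. None was called (limma, 3 of 49 at an unadjusted p under 0.05). The 30 proteins of bacterial families and the 19 found only in mitochondria both had a median of -0.09. Among the genes with the smallest p were 4 of this subunit.

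Mrpl33 (chromosome 5, 31596935 to 31664384) encodes a small protein of the bacterial L33 family. Its rlog values were 11.36, 11.46, 11.36, 11.48 and 11.45 in desmin knock-out mice 1 to 5 and 11.02, 10.96, 11.26, 11.37 and 11.10 in wild-type mice 1 to 5. Wild-type mouse 4 reached the level of the lowest knock-out mice, and the other wild-type mice lay below all of them. The means were 11.42 ± 0.06 and 11.14 ± 0.17 (SD, n = 5 each), a difference of 0.28 with a standard error of 0.09 (adjusted p = 0.067, limma). This was the smallest p of the 76 genes. Without wild-type mouse 3 the difference was 0.31 (adjusted p = 0.0216, limma), and without wild-type mouse 4 it was 0.33 (adjusted p = 0.0233, limma).

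Mrpl41 (chromosome 2, 24974117 to 24975098) encodes a protein found only in mitochondrial ribosomes. Its values were 10.27, 10.43, 10.42, 10.47 and 10.56 in desmin knock-out and 10.18, 10.18, 10.27, 10.36 and 10.19 in wild-type mice. Knock-out mouse 1 lay within the wild-type range, and the other 4 lay above it. The difference was 0.20 with a standard error of 0.08 (adjusted p = 0.147, limma), and also 0.20 without wild-type mouse 3.

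Mrpl45 (chromosome 11, 97315716 to 97329920) encodes the protein that places the tunnel exit of the ribosome at the inner membrane. Its values were 11.46, 11.39, 11.43, 11.33 and 11.39 in desmin knock-out and 11.47, 11.69, 11.80, 11.71 and 11.43 in wild-type mice. Wild-type mice 1 to 4 lay above all knock-out mice, mouse 1 by little, and wild-type mouse 5 lay within their range. The difference was -0.22 with a standard error of 0.09 (adjusted p = 0.137, limma) and -0.17 without wild-type mouse 3.

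Mrpl30 (chromosome 1, 37890477 to 37898535) encodes a protein of the bacterial L30 family. Its values were 12.02, 12.10, 12.16, 12.27 and 12.32 in desmin knock-out and 12.22, 12.31, 13.13, 12.55 and 12.25 in wild-type mice. The value of wild-type mouse 3 was far above the others, wild-type mouse 4 was also above all knock-out mice, and wild-type mice 1, 2 and 5 lay within their range. The difference was -0.32 with a standard error of 0.16 (adjusted p = 0.206, limma) and -0.16 without wild-type mouse 3.

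**Figure D4:**
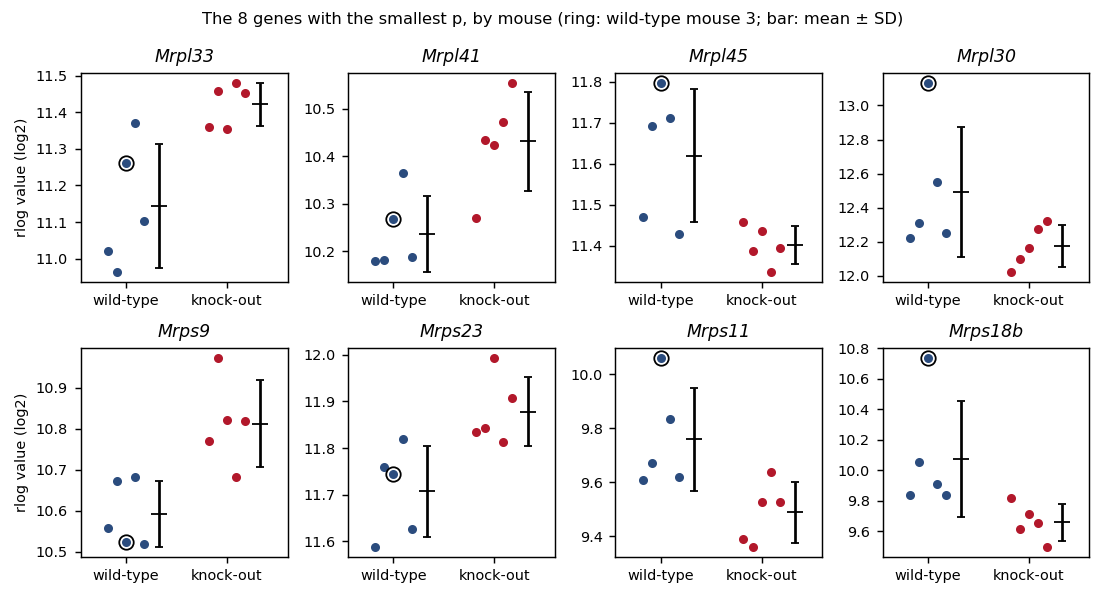
The rlog values (log2, axes not starting at 0) of the 8 genes with the smallest p, with each point 1 mouse, rings around wild-type mouse 3 and bars for the mean ± SD of 5 mice. Mrps18b is the only gene of the 8 in which the genotypes do not overlap, by a gap between 9.82 and 9.84.

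The small subunit was represented by 26 genes. Their median difference was -0.07 with all mice and 0.03 without wild-type mouse 3, and 16 of 26 had the lower mean in knock-out mice. None was called (limma, 3 of 26 at an unadjusted p under 0.05). The 16 proteins of bacterial families had a median of -0.02 and the 10 found only in mitochondria one of -0.09. The difference between the subunits was not tested.

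Mrps18b (chromosome 17, 35910379 to 35916389) encodes one of several S18 family proteins of mitochondria and was counted with the proteins found only in mitochondria. Its values were 9.82, 9.61, 9.72, 9.65 and 9.50 in desmin knock-out and 9.84, 10.05, 10.74, 9.91 and 9.84 in wild-type mice. The genotypes did not overlap, the highest knock-out mouse lying just under the lowest wild-type mouse. Separation in this direction was seen in 1 of the 76 genes and in 6.97% of all tested genes, and in the opposite direction in none of the 76 and in 7.45% of all tested genes (14.4% in both). Without wild-type mouse 3, 2 of the 76 were separated in this direction (Mrps18b and Mrpl3, against 8.47%) and none in the other (against 9.38%), where 17.8% of all tested genes were separated in either. The means were 9.66 ± 0.12 and 10.08 ± 0.38 (SD, n = 5 each), a difference of -0.42 with a standard error of 0.16 (adjusted p = 0.0968, limma). Without wild-type mouse 3 the difference was -0.25 (adjusted p = 0.052, limma). Of its exon bases 30.5% are shared with the antisense gene Gm16279 on the opposite strand, and strand use in counting is not given in the sources used here.

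Mrps9 (chromosome 1, 42851233 to 42905683) encodes a protein of the head of the small subunit. Its values were 10.77, 10.97, 10.82, 10.68 and 10.82 in desmin knock-out and 10.56, 10.67, 10.52, 10.68 and 10.52 in wild-type mice. Knock-out mouse 4 and wild-type mouse 4 met at 10.68, and otherwise the genotypes were apart. The difference was 0.22 with a standard error of 0.08 (adjusted p = 0.1, limma) and 0.21 without wild-type mouse 3. With trends on GC content and exon length removed it was 0.097 (adjusted p = 0.625, limma).

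Mrps23 (chromosome 11, 88204388 to 88211507) encodes a protein found only in mitochondrial ribosomes. Its values were 11.83, 11.84, 11.99, 11.81 and 11.91 in desmin knock-out and 11.59, 11.76, 11.74, 11.82 and 11.63 in wild-type mice. Only wild-type mouse 4 reached the knock-out range. The difference was 0.17 with a standard error of 0.08 (adjusted p = 0.195, limma) and 0.18 without wild-type mouse 3.

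Mrps11 (chromosome 7, 78783119 to 78792989) encodes a protein of the platform of the small subunit and begins beside Mrpl46, which is read in the other direction. Its values were 9.39, 9.36, 9.53, 9.64 and 9.53 in desmin knock-out and 9.61, 9.67, 10.06, 9.83 and 9.62 in wild-type mice. Knock-out mouse 4 lay within the wild-type range and the other 4 lay below it. The difference was -0.27 with a standard error of 0.11 (adjusted p = 0.112, limma) and -0.19 without wild-type mouse 3. Its neighbour Mrpl46, of whose exon bases 12.2% are shared with Mrps11 on the opposite strand, had a difference of -0.07 (adjusted p = 0.656, limma).

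Mrps36 is named as a ribosomal protein, but its product is now known as a part of the 2-oxoglutarate dehydrogenase complex. It was counted with neither subunit. Its values were 9.03 ± 0.16 in desmin knock-out and 9.20 ± 0.34 in wild-type muscle (SD, n = 5 each), a difference of -0.18 (adjusted p = 0.476, limma).

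For 70 of the 76 genes the SD was smaller among knock-out than among wild-type mice, and for 52 of the 76 when wild-type mouse 3 was left out. The median SD was 0.098 in desmin knock-out and 0.26 in wild-type mice, and 0.13 in the 4 wild-type mice other than mouse 3. Over all tested genes these medians were 0.13, 0.25 and 0.18, so a smaller SD in knock-out mice was not particular to this set. The share of all tested genes with the smaller SD in knock-out mice was not counted. The genes also varied together. The median correlation between pairs of them was 0.80 over the 5 wild-type mice, 0.61 without wild-type mouse 3 and 0.32 over the 5 knock-out mice. Such correlations were not computed for all tested genes or for other lists, so they do not set these genes apart. These are descriptions over 4 or 5 mice, in each of which all genes were read from the same library, and no test was made.

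Levels can be set beside each other only per length, here as the rlog value minus log2 of the exon length in kb. On this scale the median of the 76 genes was 9.50, compared with 6.59 for all 12762 tested coding genes. The highest were Mrpl12 (12.13), whose protein forms the stalk that recruits translation factors, Mrps21 (12.02) and Mrpl54 (11.66). The lowest were Mrpl19 (7.32), Mrps35 (6.66) and Mrpl23 (5.94). Exon length includes all annotated isoforms, so a gene with a rare long isoform is placed too low.

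All genes of the set were far above the limit on expression. The lowest rlog means were those of Mrpl23 (8.22) and Mrps6 (8.71). Mrps6 shares 19.9% of its exon bases with another gene on the same strand. Mrpl53 (chromosome 6, 83109040 to 83109939), the only gene under the limit, had values between -2.08 and -2.03, near the lowest value of the table, -2.21. Of its exon bases 88.0% are shared with Gm42688 on the same strand, and no statement on its expression was drawn from this value. In the set, 4 genes share over 10% of their exon bases with a gene on the same strand and 13 with one on the opposite strand.

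The 76 genes lie on 17 chromosomes, 11 of them on chromosome 11 and 4 on chromosome 1, which carries Des. They are short, with a median exon length of 2542 bases against 4529 bases in all tested coding genes. The GC content of their longest transcripts was like that of other genes, with medians of 49.6% and 49.8%. A coding gene on the opposite strand begins within 1 kb upstream of 18 of them (23.7%), compared with 9.97% of tested coding genes. In the promoters (250 bases before to 50 after the gene start, RefSeq, GRCm38.p6), which were found for 67 of the 76 genes, 4 motifs of factors known to act on mitochondrial genes were searched on both strands. The ETS core CCGGAAG was found in 25 of 67 promoters (37.3%), compared with 19.5% of 10032 promoters of tested coding genes. The YY1 motif AAGATGGCG was found in 8 (11.9% against 3.51%) and the NRF1 motif GCGCATGCG in 7 (10.4% against 4.05%). The estrogen-related receptor motif TCAAGGTCA was found in none, against 0.319%. No sites of different motifs overlapped in these genes.

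Sites in promoters of genes named here are shown because a larger share of these promoters than of all tested promoters held such motifs, which was not tested. The motif is in capitals, read 5′ to 3′ on the strand of the gene (ETS in Mrpl33, Mrps23 and Mrps21, NRF1 in Mrps18b, YY1 in Mrps11), and all but that of Mrpl33 are the reverse complement of the letters above. They lie at chr5:31613938-31613964 (+), chr11:88204393-88204419 (+), chr3:95871480-95871506 (-), chr17:35916646-35916674 (-) and chr7:78783013-78783041 (+) of GRCm38.p6, in the order given.
Mrpl33: cgcgcatgccCCGGAAGtagtcgttga
Mrps23: gccgcttccgCTTCCGGtaacagcccg
Mrps21: gtagcttccgCTTCCGGtccgcagaga
Mrps18b: aacggcccgaCGCATGCGCactgggagca
Mrps11: ctacgggcgcCGCCATCTTtctgtcttcc
A match to such letters is a description and not a binding site. All sites shown lie in annotated exons. The Mrpl33 promoter follows the RefSeq start and lies inside the gene span given above. Genes with the ETS core lay at both ends of the range of differences, from Mrpl33 at 0.28 to Mrps18b at -0.42, whose ETS site is not shown.

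The factors that serve the same ribosome were mostly not called either. Of 5 ribosomal proteins under other names (Dap3, Ptcd3, Aurkaip1, Chchd1 and Gadd45gip1), none was called (limma), with a median of -0.09, and with sample weights Ptcd3 (-0.20) was called lower. Of 15 translation factors, which start, extend and end the chains or carry the messages, 1 was called lower and none higher, where 5.99% and 7.70% of all tested genes were. This was Taco1, an activator of the translation of a cytochrome oxidase subunit. Its values were 10.30, 10.26, 10.21, 10.34 and 10.38 in desmin knock-out and 10.76, 10.99, 10.56, 10.50 and 10.61 in wild-type mice, with no overlap. It fell by 0.39 on the log2 scale, with a standard error of 0.10 (adjusted p = 0.0212, limma), and by 0.41 without wild-type mouse 3 (adjusted p = 0.00804, limma). With sample weights 4 of the 15 were called lower (limma, against 14.9% of all tested genes), Taco1 together with Mrrf (-0.20), Mtrf1 (-0.24) and Gfm2 (-0.26), which recycle the ribosome or act at the end of a chain. Of 26 genes for assembly of the mitochondrial ribosome, 1 was called higher and none lower. This was Mettl15, a methyltransferase for the ribosomal RNA of the small subunit, with a difference of 0.43 and a standard error of 0.13 (adjusted p = 0.0404, limma). Its call was lost without wild-type mouse 3 (0.38, adjusted p = 0.0503, limma). Knock-out values of Mettl15 were 7.96, 7.79, 7.81, 8.11 and 8.21 and wild-type values 7.81, 7.66, 7.38, 7.30 and 7.61. The genotypes overlapped at wild-type mouse 1, whose value knock-out mouse 2 did not reach. Of 17 mitochondrial aminoacyl-tRNA synthetases none was called (limma), with a median of -0.10.

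Of the RNAs made in the organelle none was called (limma). The ribosomal RNAs mt-Rnr1 and mt-Rnr2 had differences of -0.23 (adjusted p = 0.3, limma) and -0.43 (adjusted p = 0.102, limma), with the highest value of each in wild-type mouse 3. With sample weights mt-Rnr2 was called lower (adjusted p = 0.00533, limma), as were 14.9% of all tested genes. Libraries were made from messenger RNA, although the discussion of the study speaks of total RNA sequencing. These levels can therefore not be taken as those of the ribosome itself. Of 13 mitochondrial messenger RNAs, 8 reached the limit and none was called (limma), with a median of -0.12 and of 0.01 without wild-type mouse 3. Among 9 regulators of mitochondrial genes, including Nrf1, Gabpa, Yy1, Esrra and Ppargc1a, none was called (limma). Ppargc1a, a coactivator of mitochondrial genes, had values of 10.92, 11.25, 11.02, 10.69 and 10.94 in desmin knock-out and 12.06, 11.78, 10.05, 10.64 and 10.93 in wild-type mice. Wild-type mice 1 and 2 lay above and wild-type mice 3 and 4 below all knock-out mice. Its difference was -0.13 with all mice (adjusted p = 0.815, limma) and -0.39 without wild-type mouse 3 (adjusted p = 0.308, limma). With sample weights Ppargc1a was called lower (-0.78, adjusted p = 0.00343, limma), again beside 14.9% of all tested genes.

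The medians of the lists most like these genes also shifted when wild-type mouse 3 was left out. The 80 tested cytosolic ribosomal protein genes had a median difference of -0.16 with all mice and 0.01 without this mouse, which had the highest value for all 80. The 83 nuclear-encoded respiratory chain genes had medians of -0.09 and 0.01, and this mouse had the highest value for 62 of them. With all mice none of the 80 and 1 of the 83, higher, were called (limma), where 7.70% of all tested genes were higher and 5.99% lower. With sample weights 8 of the 80 were called higher and none lower, and 15 of the 83 higher and 2 lower (limma). Of all tested genes 14.6% were then higher and 14.9% lower. In bulk muscle, fewer cells of a type and less RNA per cell cannot be told apart. The summed level of the muscle fiber markers, of which 1 was called higher and 3 lower, was between 22.1 and 22.3 in desmin knock-out and between 22.3 and 23.2 in wild-type mice, so that the genotypes did not overlap, and the highest was that of wild-type mouse 3. That of 6 fibroblast markers, of which 3 were called higher and none lower, was between 13.6 and 14.2 in desmin knock-out and between 13.2 and 14.2 in wild-type mice, the lowest being that of wild-type mouse 3. That of 5 endothelial markers, of which 3 were called lower, was between 11.47 and 11.97 in desmin knock-out and between 11.98 and 12.32 in wild-type mice, again with no overlap and with the highest in wild-type mouse 3. That of 5 erythroid markers, of which 2 were called lower, was between 11.5 and 12.1 in desmin knock-out and between 12.0 and 13.4 in wild-type mice. Wild-type mouse 3 had the highest value for all 5 erythroid markers, with a median of 1.29 above their means over the 10 mice. Of all tested genes 13.7% were called with all mice, and 14.4% did not overlap between the genotypes as single genes. No marker of macrophages (7 genes), adipocytes (5 genes) or Schwann cells (5 genes) was called (limma). The part of these cells in the differences of the ribosomal protein genes was not tested.

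**Figure D5:**
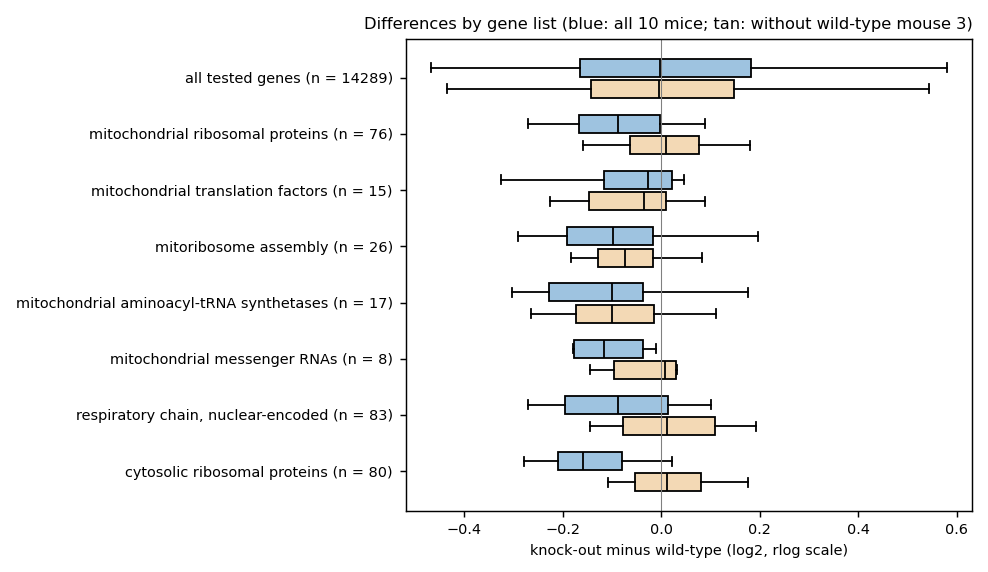
Knock-out minus wild-type differences (log2, rlog scale) of gene lists, with all 10 mice in blue and without wild-type mouse 3 in tan; boxes span the quartiles, lines inside are medians and whiskers end at the outermost gene within the 5th to 95th percentile, so that genes beyond are not drawn. The median of the 76 genes moves from -0.09 to 0.01, and that of the cytosolic ribosomal proteins from -0.16 to 0.01.

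The weight given to each mouse changed the calls. When limma estimated weights for the mice, 7 of the 76 genes were called higher and 2 lower, compared with 14.6% and 14.9% of all tested genes, or 29.5% in both directions. The genes called higher were Mrpl33, Mrpl41, Mrpl20, Mrps18c, Mrpl48, Mrps23 and Mrps12, with differences between 0.18 and 0.41. Those called lower were Mrps18b (-0.33) and Mrpl45 (-0.20). The median was then 0.04, and 24 of the 76 genes had the lower mean in knock-out mice, against 50.3% of all tested genes.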

How the data were processed

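RNA of gastrocnemius muscle, with plantaris according to parts of the study, was sequenced by the authors from a stranded mRNA library of each mouse. The discussion of the study speaks of total RNA sequencing instead. The submitters' processing notes list cutadapt 2.5, STAR 2.5.4a, Subread 1.6.1, featureCounts and DESeq2 with GRCm38. The deposited table holds DESeq2 regularized log values, which are log2 values that the authors' processing scales by size factors and shrinks gene by gene. Shrinkage makes differences smaller than those of counts. Counts were not used here, so depth and counting error are unknown.

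All 14289 genes whose mean reached log2(10) entered one fit (R 4.3.3, limma 3.58.1, eBayes with a trend, two-sided, genotype alone, Benjamini-Hochberg adjustment over 14289 genes), which was tested on simulated data. Symbols, positions and exon lengths came from GENCODE M21 (GRCm38), and promoters from RefSeq (GRCm38.p6). The NRF1 and YY1 motifs were shortened by 1 letter after a search with the longer forms, which fewer promoters held. Values are per mouse. Each p-value sets the genotype difference against the spread between these mice, with gene variances drawn towards a common trend.

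Named genes were Des, the 8 members with the smallest p (none passed), the 3 highest and 3 lowest per length, those nearest the limit, members whose call changed without wild-type mouse 3, and up to 2 called genes of each related list. Other genes are named to complete a count or a range and were chosen after their values were seen. The members, lists and this rule were chosen with earlier results of these data known. Alternatives were no limit, log2(50), median centring, quantile normalization, one prior variance, sample weights, the replicate number as a block, 4 Y-linked transcripts as a covariate, removal of trends on GC content and exon length, each mouse left out and an adjusted p under 0.01. Calls with sample weights among the aminoacyl-tRNA synthetases are not reported here.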

Additional observations from a re-analysis of the deposited data

Results flagged for a closer look

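In 42 groups of 5 mice (each genotype for the tested genes named by the rule and for the median of all, of the large subunit and of the small subunit genes), 3 held a single mouse at a distance from its group, and about 2.1 are due by chance. Wild-type mouse 3 was the highest wild-type mouse for Des (17.74) and for Mrps18b (10.74). Wild-type mouse 4 was the highest wild-type mouse for Mrps6 (8.98).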

How the results depend on the processing

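With all 10 mice 0 of 76 genes were called. The count of genes called higher was 1 after quantile normalization (1090 higher and 1049 lower of all 14289 tested genes) and 1 with a Y-linked covariate, the mean of 4 transcripts (1135 higher and 955 lower of all), Mrpl33 in both, and it was 7 with sample weights, which also called 2 genes lower (2093 higher and 2127 lower of all). With each mouse left out in turn, it was between 0 and 1, the call again being Mrpl33, without wild-type mouse 3 (1335 higher and 1161 lower of all) or 4 (1058 higher and 888 lower of all). With that covariate the median of the small subunit genes was 0.055; this mean was 9.52 in wild-type mouse 3 and between 9.88 and 10.62 in the other mice. The cause of these changes was not tested. With the replicate number as a block 0 of 76 genes were called and the median was -0.09; over all genes 913 were higher and 666 lower, compared with 1100 and 856. Mice of the same number did not deviate together (correlations between -0.22 and 0.07, and 0 of 5 knock-out mice correlated best with the wild-type mouse of their number). Taco1 had an adjusted p under 0.05 (limma) in 16 and Mettl15 in 8 of 20 alternatives. Both counts include the setting with a threshold of 0.01, which is among the 20 and repeats the main fit. Under that threshold neither kept its call (adjusted p = 0.0212 and 0.0404, limma). The 8 members with the smallest p kept the sign of their difference in all 20. Their adjusted p (limma) was between 7.7e-05 and 0.165 for Mrpl33 and between 0.00631 and 0.209 for Mrps18b. For Mrps9 it was between 0.0696 and 0.625 (limma), the highest with trends on GC content and exon length removed. Median centring gave a median of -0.13 over the 76 genes. The table gives no depth, and rlog values hold differences of low genes down.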

Other observations

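Of the 13 mitochondrial messenger RNAs, mt-Co2, mt-Co3, mt-Atp6, mt-Atp8 and mt-Nd4l had rlog values between -0.76 and 2.33 in all 10 mice, whereas mt-Nd6 had 13.22 ± 0.20 in desmin knock-out and 12.89 ± 0.39 in wild-type muscle (SD, n = 5 each). These 5 are abundant transcripts in muscle as a rule, and no statement on their level was drawn.

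Lars2, the mitochondrial leucyl-tRNA synthetase, was singled out after its values were seen. In wild-type mice 1 to 5 it had 11.71, 11.94, 13.26, 12.50 and 13.85, and in desmin knock-out mice it lay between 11.64 and 12.03. The difference was -0.83 with a standard error of 0.32 (adjusted p = 0.111, limma).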
